A study of Mus musculus with 61 samples.

Results

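The data described here are the transcript levels of 9 transcription factors that set the helper and effector lineages of T cells, Tbx21, Gata3, Rora, Bcl6, Prdm1, Maf, Eomes, Ahr and Id2. The members were matched by gene symbol, and all 9 symbols were found among the 24421 gene symbols counted in 61 mouse RNA-seq libraries. The members and the gene lists were chosen with earlier results of these data known, so counts of them are descriptions. Of these libraries, 30 came from sorted naive CD4+ T cells (CD44 low, CD25-) that were activated with antibodies to the T cell receptor and CD28, transduced with a retrovirus, kept in IL-2 for 48 h and sorted again for the GFP of the vector. The vector was empty (EV) or carried unchanged STAT5B or its N642H, Y665F or Y665H form, and each was put into WT cells and into cells of mice whose floxed Stat5a/b locus was deleted by Cd4-Cre (here Stat5a/b-null), with 3 libraries for each of the 10 groups. The cells came from pooled lymph nodes and spleens, and the genotype entry of the labels names the floxed locus for all 30 libraries, those titled WT included. Another 15 libraries came from T cells isolated from spleens by negative selection, in 4 libraries each of WT mice and of mice homozygous for Stat5b Y665H or Stat5b Y665F, given IL-2 plus IL-7 for 24 h, and in 3 libraries of Y665F cells without interleukin. Replicate 4 of the Y665H T cells may hold the reads of replicates 1 and 2, as given below. The last 16 libraries, titled as splenocytes and labelled as spleen, came from 4 WT, 5 Y665H and 7 Y665F mice without stimulation. The labels give C57BL/6 and an age of 2 months for all libraries, and the study's methods name C57BL/6N for the making of the knock-in mice. The knock-in alleles were made in the germline by base editing (Y665H) or with Cas9 and an oligonucleotide (Y665F), so that the cells of the whole animal carry them, while Cd4-Cre acts in T cells. For the replicates of the CD4+ cells no label says whether they came from separate mice or cultures, so that p-values there measure the spread between libraries, which may be technical.

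As background, STAT5B is the signal transducer that IL-2 and IL-7 activate through JAK kinases; once phosphorylated, it forms dimers that bind DNA at interferon-gamma activated sequences (GAS). The substituted asparagine and tyrosine lie in its SH2 domain, and all 3 substitutions are known from T-cell leukaemias. A naive helper T cell takes its fate from antagonistic factors: Tbx21 encodes T-bet, which drives the Th1 program, Gata3 drives Th2, Rora encodes ROR alpha, a partner of ROR gamma t in Th17 cells, and Bcl6 is the repressor that defines follicular helper T (Tfh) cells and germinal centre B cells. Prdm1 encodes Blimp-1, the antagonist of Bcl6 in effector cells and plasma cells, Maf encodes c-Maf, which activates IL-4, IL-10 and IL-21, Eomes is the relative of T-bet found in memory CD8+ T cells and NK cells, Ahr is a receptor activated by small ligands, and Id2 blocks E proteins in effector T cells and innate lymphocytes. Repression of Bcl6 by IL-2 and STAT5 is a known step in keeping activated T cells from the Tfh fate.

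The libraries of CD4+ T cells held between 18825994 and 49850689 reads on genes, those of splenic T cells between 2017012 and 27394249, and the spleens between 24203179 and 43330536. Levels are given as CPM, the share of a library's reads on genes set to a fixed total after TMM scaling, and a factor was called when edgeR's quasi-likelihood test gave a Benjamini-Hochberg adjusted p under 0.05 over all genes of the fit, without a fold minimum. Counts of members at an unadjusted p under 0.05, or with DESeq2, another test on counts, have no share of all genes beside them. Such counts therefore cannot be read as a result about the members. In Stat5a/b-null cells with EV, Stat5b lay between 2.84 and 9.22 CPM, against 184 to 208 CPM in WT cells with EV and 182 to 365 CPM in null cells with any of the 4 constructs. Stat5a, which no vector carried, was at 134 to 170 CPM in WT cells with EV. In null cells it was at 1.75 to 6.47 CPM with EV, 1.93 to 8.43 CPM with STAT5B, N642H or Y665F and 2.05 to 14.6 CPM with Y665H. The part of this remaining Stat5a in the results with Y665H was not tested. The CD4+ cells held 630 to 1213 CPM of Cd4 and at most 0.439 CPM of Cd8a. The point mutations themselves cannot be seen in gene counts.

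The gene whose data showed the largest number of called differences in the CD4+ cells was Bcl6, which lies on chromosome 16 of GRCm38 from 23965052 to 23988852 on the minus strand. Its promoter is shown because, among the 7 members with a promoter entry in RefSeq (GRCm38.p6), Bcl6 alone held the letters of the GAS core, TTCNNNGAA, in the 250 bases before a start site. RefSeq gives Bcl6 a distal start at the end of the gene model and another start inside it. The windows are chr16:23988853-23989102 and chr16:23981284-23981533, both written on the minus strand from 5′ to 3′ with the GAS letters in capitals, and the first GAS letter stands 118 bases before the distal start and 168, 122 and 88 bases before the internal start.
Bcl6 distal start: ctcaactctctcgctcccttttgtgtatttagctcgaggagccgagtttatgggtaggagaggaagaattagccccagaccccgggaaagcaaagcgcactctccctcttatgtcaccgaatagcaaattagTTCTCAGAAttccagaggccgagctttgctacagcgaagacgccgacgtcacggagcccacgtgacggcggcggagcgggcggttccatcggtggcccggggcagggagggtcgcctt
Bcl6 internal start: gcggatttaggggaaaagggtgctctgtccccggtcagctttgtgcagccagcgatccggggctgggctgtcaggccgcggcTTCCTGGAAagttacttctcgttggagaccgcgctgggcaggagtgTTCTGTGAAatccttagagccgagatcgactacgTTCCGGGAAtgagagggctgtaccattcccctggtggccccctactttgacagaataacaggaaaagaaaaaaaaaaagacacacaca
The core reads the same on both strands. Of all 32851 promoter windows of this length, 2306 (7.02%) held it at least once and 9 (0.0274%) held 3 or more matches, as the window of the internal Bcl6 start did. The match of letters is a description and not a measurement of binding.

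The first comparison asked how the loss of Stat5a/b itself moved the 9 factors, with EV in both backgrounds. Tbx21, Maf, Bcl6, Rora and Ahr were higher in the null cells, so that 5 of the 9 factors were called higher and 0 lower, where 6.83% of the 21975 genes tested were higher and 7.06% lower. Gata3, Prdm1, Eomes and Id2 did not pass the test. In this comparison the genotype and the mice of each background cannot be told apart.

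Bcl6 was at 26.6, 34.9 and 35.5 CPM in the null libraries with EV and at 3.23, 3.32 and 7.39 CPM in the WT libraries. The lowest null library lay above the highest WT library, and the fitted difference was 6.85-fold (log2 2.78, SE 0.31, adjusted p = 5.11e-07). Maf was at 10.2, 17.6 and 18.03 CPM in null cells against 0.444, 1.07 and 1.18 CPM in WT cells. It showed the largest fold of the 9 factors, 16.8-fold (log2 4.07, SE 0.57, adjusted p = 1.36e-05).

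Tbx21 was at 4.45, 9.86 and 23.9 CPM in null cells against 0.685, 0.911 and 1.18 CPM in WT cells. The groups did not overlap, although the null libraries themselves spanned a wide range, and the fitted fold was 13.8 (log2 3.79, SE 0.68, adjusted p = 0.000307). Rora was at 38.7, 38.9 and 40.6 CPM against 10.8, 13.0 and 13.9 CPM, a log2 difference of 1.63 (SE 0.25, adjusted p = 6.24e-05) with tight null replicates. Ahr was at 10.8, 12.5 and 18.3 CPM against 4.30, 4.44 and 6.82 CPM, a log2 difference of 1.41 (SE 0.36, adjusted p = 0.00866), and this call was lost without null EV replicate 3 (log2 1.13, adjusted p = 0.0604, within 0.000977 to 0.0604 over the 11 alternatives tried for it).

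The 4 factors that did not pass were Gata3 (log2 difference of null against WT −0.24), Prdm1 (−0.01), Eomes (1.12, SE 0.41, adjusted p = 0.0649) and Id2 (−0.61, SE 0.23, adjusted p = 0.0734). Eomes and Id2 both passed without WT EV replicate 1, and no libraries overlapped between the groups for either gene. Eomes was low in all CD4+ libraries, at most 4.35 CPM, while Gata3 and Id2 were the members with the highest level per kilobase of exon in both groups. Per kilobase, Id2 was at 20.05 CPM and Gata3 at 16.94 CPM in null cells with EV, followed by Tbx21 at 5.11 and Bcl6 at 4.82, and in WT cells with EV Id2 was at 30.22 CPM, Gata3 at 19.72 CPM and the other 7 below 1 CPM.

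Genes that act with these factors were read from lists of textbook members, chosen with earlier results of these data known. Between null and WT cells with EV, 7 of 7 STAT5 response genes were lower, led by Socs2 (log2 −5.75) and Cish (−4.15), feedback inhibitors of cytokine signalling. Of 9 Tfh genes, 3 were higher and 2 lower, among them the follicle-homing receptor Cxcr5 (log2 3.14) and the inhibitory receptor Pdcd1 (1.15). Of 10 Th1 genes, 2 were higher, the chemokine Xcl1 (4.36) and the cytokine Ifng (3.40), and 1 lower. Of 8 Th2 genes, 3 were lower and 0 higher, with the chemokine receptor Ccr4 at −2.24 and the cytokine Il13 at −5.00. Of 28 other lineage factors, 9 were higher and 1 lower, led by Ikzf2 (3.46) and Tox (0.90), and of 6 Th17 genes 2 were higher, Ccr6 (1.37) and Il17f (2.33). Of 5 E proteins and other Id factors, Tcf12 was higher (0.56) and Tcf3 lower (−0.80), and 0 of 5 AHR response genes were called in either direction. The median log2 difference was 0.98 over the Tfh genes, −1.49 over the Th2 genes and 1.41 over the 9 factors, where that of all genes was −0.12. The summed level of 7 effector and memory CD8 markers also differed, at 130 to 333 CPM in null and 25.8 to 61.3 CPM in WT cells with EV. Cd8a was near 0 in both, while Cd8b1 was higher in the null cells. The part of these markers in the difference was not tested.

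**Figure D1:**
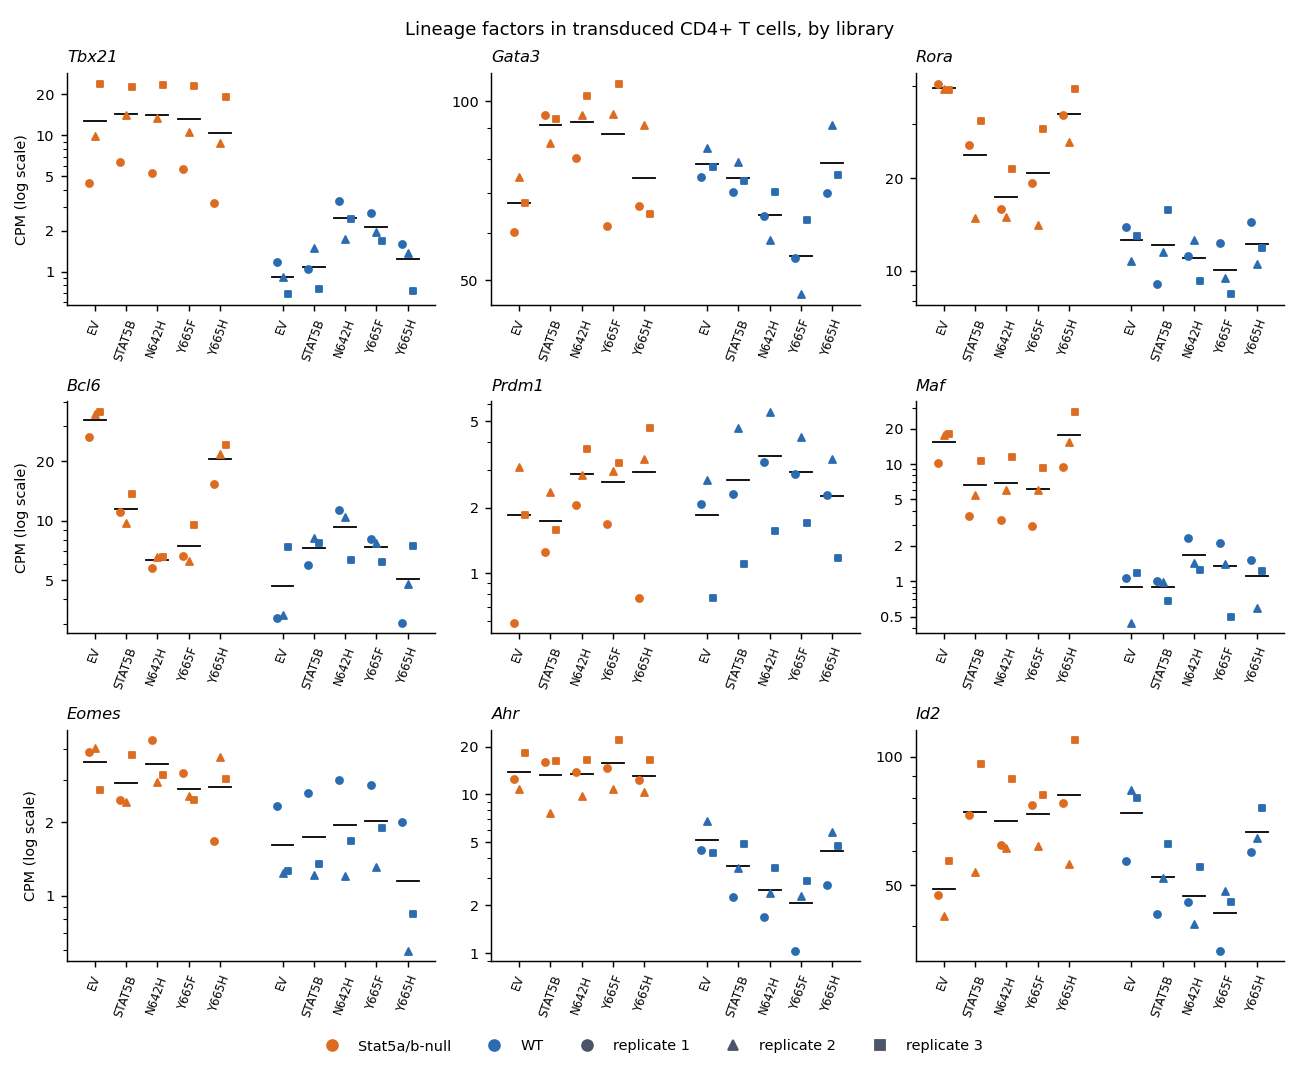
Level of each factor in every library of transduced CD4+ T cells (CPM, log scale), by vector on the x axis, with Stat5a/b-null cells in orange and WT cells in blue; symbols mark the replicate number and black lines the mean of 3 libraries. Bcl6 ran from 26.6 to 35.5 CPM in null cells with EV and from 5.78 to 6.58 CPM with N642H, and Tbx21 kept the same order of replicate numbers in all 5 null groups.

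The next comparisons asked which construct changed these levels in Stat5a/b-null cells. Bcl6 fell with STAT5B, with N642H and with Y665F, and Rora fell with N642H and with Y665F. The called members thus were 1 of 9 with STAT5B, where 0.95% of 20113 genes were higher and 0.567% lower, 2 with N642H, where 5.67% were higher and 5.97% lower, and 2 with Y665F, where 5.16% were higher and 4.42% lower. With Y665H, 0 of 9 members were called, and 0.0249% of genes were higher and 0% lower; at an unadjusted p under 0.05 there were 2 members, Bcl6 and Id2, and DESeq2 called 0.

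Bcl6 stood at 9.70, 11.05 and 13.6 CPM with STAT5B, a 2.85-fold lower level than with EV (log2 −1.51, SE 0.21, adjusted p = 0.000726). With N642H it was at 5.78, 6.55 and 6.58 CPM, the lowest levels of the null cells, 5.25-fold below EV (log2 −2.39, SE 0.22, adjusted p = 1.88e-06). With Y665F it was at 6.26, 6.64 and 9.48 CPM, 4.47-fold below EV (log2 −2.16, SE 0.21, adjusted p = 6.74e-06). None of the libraries of these 3 groups reached the lowest EV library, at 26.6 CPM, and each of the 3 calls held without any single library. With Y665H, Bcl6 was at 15.4, 21.8 and 24.3 CPM. These libraries all lay below those with EV and above those with STAT5B, and the log2 difference from EV was −0.64 (SE 0.20, adjusted p = 0.896).

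Levels of the null libraries went together by replicate number, so the fits were repeated with the number as a block. Blocked, 5 members were called with STAT5B (2 higher and 3 lower, where 5.35% of genes were higher and 4.15% lower), 5 with N642H (2 higher and 3 lower, against 9.9% and 10.6%), 4 with Y665F (1 higher and 3 lower, against 9.38% and 8.98%) and 1 with Y665H (higher, against 0.114% and 0.0348%). The added calls were Maf, lower with STAT5B, N642H and Y665F, Id2, higher with all 4 constructs, Gata3, higher with STAT5B and N642H, and Rora, lower with STAT5B.

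Maf showed the largest gap between the fits with and without the block. It was at 10.2, 17.6 and 18.03 CPM with EV in replicates 1, 2 and 3, at 3.63, 5.43 and 10.7 CPM with STAT5B, at 3.31, 5.96 and 11.5 CPM with N642H and at 2.95, 5.98 and 9.32 CPM with Y665F. In each of these 3 groups every library was lower than the EV library of the same number. Without the block the log2 changes were −1.25, −1.21 and −1.38, each with SE 0.49 and adjusted p = 0.22, 0.127 and 0.0895; with the replicate block they were −1.34, −1.32 and −1.48, each with SE 0.16 and adjusted p = 3.31e-05, 7.88e-06 and 3.13e-06. Over the 11 alternatives tried for each change, the largest adjusted p were 0.524, 0.409 and 0.321. With Y665H, Maf was at 9.40, 15.4 and 27.8 CPM, which overlapped EV.

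Rora was at 14.8, 25.7 and 30.8 CPM with STAT5B, at 15.01, 15.9 and 21.5 CPM with N642H and at 14.1, 19.3 and 29.0 CPM with Y665F. All of these libraries lay below the lowest EV library, at 38.7 CPM. The log2 change was −1.21 with N642H (SE 0.26, adjusted p = 0.00454) and −0.96 with Y665F (SE 0.25, adjusted p = 0.0219), and it was −0.74 with STAT5B (SE 0.25, adjusted p = 0.155), which passed with the block (−0.80, SE 0.15). The Y665F call was lost without null EV replicate 1 (log2 −0.93) or 2 (−0.97) and without null Y665F replicate 1 (−0.91) or 2 (−0.71). With Y665H, Rora was at 26.3, 32.1 and 39.0 CPM, and the libraries overlapped those with EV.

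Id2 was at 42.3, 47.4 and 57.0 CPM with EV and at 53.6 to 96.3 CPM with STAT5B, 61.0 to 88.5 CPM with N642H, 61.9 to 81.2 CPM with Y665F and 56.1 to 109 CPM with Y665H. All 4 groups had means above EV, and none passed without the block (adjusted p = 0.223, 0.201, 0.169 and 0.896). With the block its log2 changes were 0.57, 0.49, 0.56 and 0.71, each with SE 0.11, so Id2 was the member called with Y665H as well. Gata3 was at 60.2, 67.5 and 74.5 CPM with EV and at 85.2 to 94.9 CPM with STAT5B, which did not overlap, and 80.3 to 102 CPM with N642H. Its blocked log2 changes were 0.45 and 0.42, each with SE 0.14. Tbx21, Ahr, Eomes and Prdm1 passed against EV neither with nor without the block, with any of the 4 constructs. Prdm1 was low throughout, at 0.591 to 5.53 CPM over the 30 CD4+ libraries.

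Tbx21 and Ahr followed the replicate number rather than the vector in null cells. Tbx21 was at 3.22 to 6.35 CPM in the 5 libraries numbered 1, at 8.79 to 14.1 CPM in those numbered 2 and at 19.2 to 23.9 CPM in those numbered 3. The 3 ranges did not overlap for Tbx21 and for Ahr, as for 21 of 11451 genes averaging 1 CPM or more (0.183%), and in WT cells this held for none of the 9 factors and for 45 of 11358 genes (0.396%). What the numbers stand for is not given in the labels.

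The constructs were also set against STAT5B itself, 3 pairs in null cells and 3 in WT cells, which share the STAT5B libraries. Without the block, 0 of 9 members were called in null cells, with 0.0796% of genes higher and 0.00497% lower for N642H, 0.0199% and 0% for Y665F, and 0.0447% and 0.184% for Y665H. At an unadjusted p under 0.05 there was 1 member for N642H and 1 for Y665F, Bcl6 in both, and 2 for Y665H, Bcl6 and Maf, and DESeq2 called 1, 0 and 1. With the replicate block, Bcl6 was lower with N642H than with STAT5B (log2 −0.86, SE 0.15; 0.651% of genes higher and 0.224% lower), and with Y665F the log2 difference of −0.66 (SE 0.15) did not pass (0.403% and 0.109%). For Y665H against STAT5B, the block called Bcl6 higher (0.85, SE 0.14), Maf higher (1.44, SE 0.16) and Tbx21 lower (−0.58, SE 0.15), where 1.35% of genes were higher and 2.83% lower. The Bcl6 libraries of the 2 substitutions of the same tyrosine lay on opposite sides of those with STAT5B, at 6.26 to 9.48 CPM with phenylalanine and 15.4 to 24.3 CPM with histidine, against 9.70 to 13.6 CPM with STAT5B. For phenylalanine this difference from STAT5B passed neither with nor without the block. For histidine it passed with the block and not without it.

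Among the genes that act with these factors, 7 of 7 STAT5 response genes rose in null cells with STAT5B (Socs2 4.48, Cish 3.17 on the log2 scale), with N642H (Socs2 5.78, Il2ra 2.95) and with Y665F (Socs2 5.62, Il2ra 2.82), and 1 of 7 rose with Y665H (Socs2 1.98). Cxcr5 of the Tfh list fell with STAT5B (−1.34), N642H (−1.46) and Y665F (−1.59), and Sh2d1a, an adaptor needed for T and B cell contacts, rose with the same 3 (0.55, 1.14 and 0.95). In all, 1 of 9 Tfh genes rose and 1 fell with STAT5B, 2 and 4 with N642H, and 1 and 4 with Y665F. Of 8 Th2 genes, 1 rose with STAT5B, Ccr4 (1.18), and 3 each with N642H (Ccr4 1.66, Il13 6.39) and Y665F (Ccr4 1.55, Il13 5.75), and 0 fell. Of 28 other lineage factors, 0 passed with STAT5B, 2 rose and 5 fell with N642H (Nfil3 1.01, Stat4 −0.76), and 3 rose and 4 fell with Y665F (Nfil3 0.99, Lef1 −0.64). Of 10 Th1 genes, 0 passed with STAT5B, 2 rose and 2 fell with N642H (Ccl3 1.70, Xcl1 −1.88), and 2 rose with Y665F (Ccl3 1.92, Ccl4 1.30). The xenobiotic gene Nqo1 of 5 AHR response genes rose with N642H (1.23) and Y665F (1.20), Id3 of the 5 E proteins and other Id factors fell with N642H (−0.68), and 0 of 6 Th17 genes passed with any construct. With Y665H, Socs2 was the single gene called in these 8 lists. Against STAT5B itself, Lta of the STAT5 response genes was higher with N642H (1.77), 0 of 7 passed with Y665F and 5 of 7 were lower with Y665H (Socs2 −2.50, Il2ra −1.57), and 0 genes of the other lists were called without the block. Blocked, 3 STAT5 response genes were higher with N642H, 2 with Y665F and 0 with Y665H, where 6 were lower, and Y665H also had 4 Tfh genes higher and 1 lower, 2 lineage factors higher and 1 lower, 1 Th2 gene lower and 1 E protein or Id factor lower. N642H also had 1 Th1, 1 Th2 and 1 Tfh gene higher and 1 Tfh gene and 1 E protein or Id factor lower than STAT5B, and Y665F 1 Th1 gene higher. With the replicate block, more genes of these lists were called. Of the 28 lineage factors, 3 rose and 7 fell with STAT5B, 4 and 11 with N642H, and 3 and 9 with Y665F. Of the 10 Th1 genes, 1 rose and 2 fell, 5 and 5, and 4 and 3 with the same constructs in turn, and of the 9 Tfh genes 1 and 4, 2 and 4, and 2 and 4. Of the 8 Th2 genes, 2, 3 and 3 rose and 0 fell, 1 of 6 Th17 genes fell with each, and 0, 2 and 3 of 5 AHR response genes rose. Of the 5 E proteins and Id factors, 1 rose and 0 fell, 1 and 2, and 2 and 1, all 7 STAT5 response genes rose with each of the 3, and with Y665H 2 of 7 rose and 0 genes of the other lists were called.

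**Figure D2:**
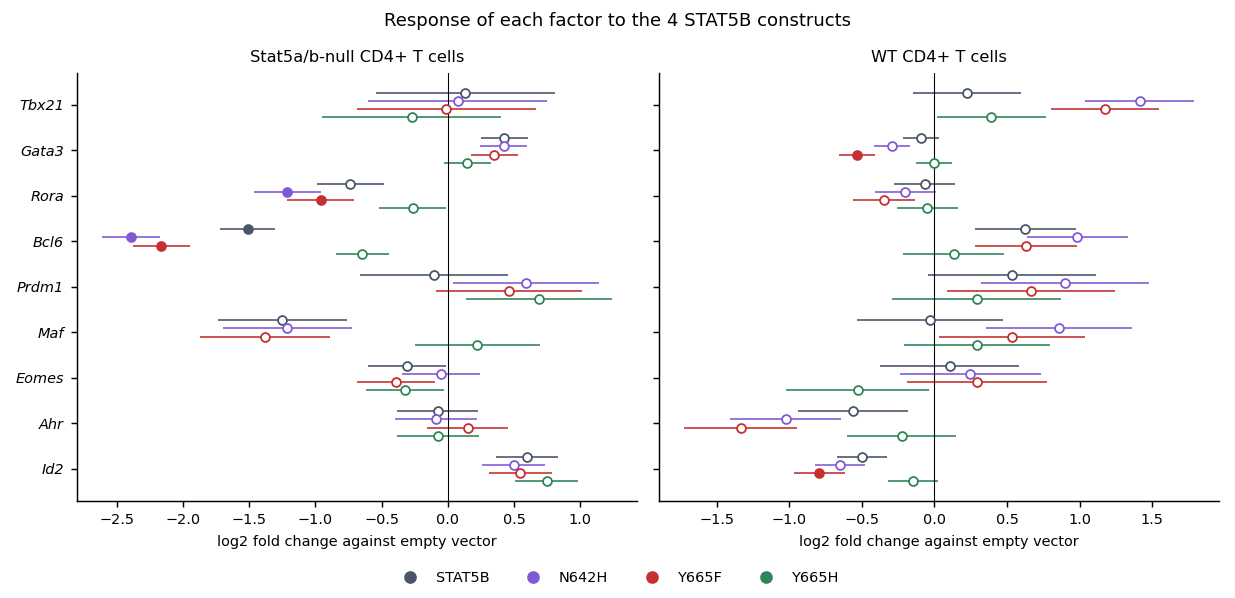
Log2 fold change of each factor against EV (points, bars ± SE) for the 4 constructs in Stat5a/b-null cells (left) and WT cells (right), filled where the adjusted p was under 0.05 without the block. In null cells Bcl6 lay at −1.51, −2.39 and −2.16 for STAT5B, N642H and Y665F and at −0.64 for Y665H, and in WT cells its 4 points were all above 0 and none was filled.

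WT cells keep their own STAT5. Gata3 and Id2 fell with Y665F, so 2 of 9 were called there, with 0.746% of 20509 genes higher and 0.512% lower. Gata3 was at 47.3, 54.5 and 63.1 CPM with Y665F against 74.5, 77.5 and 83.3 CPM with EV (log2 −0.53, SE 0.12, adjusted p = 0.0476), and Id2 at 35.1, 45.5 and 48.5 CPM against 57.1, 80.1 and 83.8 CPM (log2 −0.79, SE 0.17, adjusted p = 0.0346). The groups did not overlap for either gene. Both calls were close to the threshold: Gata3 passed in 1 of the 6 fits without a library of either group, that without WT Y665F replicate 3, and Id2 in 2 of 6, those without WT EV replicate 1 and without WT Y665F replicate 3.

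With N642H in WT cells, 0 members were called (1% of genes higher, 0.522% lower), 5 had an unadjusted p under 0.05 and DESeq2 called 2. Same-numbered WT libraries went together in 29 of 30 pairs. With the number as a block, 5 members were called with N642H, Tbx21, Bcl6 and Prdm1 higher and Ahr and Id2 lower. With Y665F 5 were called, Tbx21 and Prdm1 higher and Gata3, Ahr and Id2 lower, with STAT5B 1 and with Y665H 0. The share of all genes called was not computed for this block. Tbx21 was at 1.73, 2.44 and 3.31 CPM against 0.685, 0.911 and 1.18 CPM with EV (log2 1.41, SE 0.37, adjusted p = 0.0811), and with Y665F it was at 1.70, 1.98 and 2.70 CPM (log2 1.17, SE 0.37, adjusted p = 0.148). Both groups lay above all EV libraries, at levels below the lowest null library, 3.22 CPM, except for N642H replicate 1. Ahr was at 1.68, 2.41 and 3.46 CPM with N642H and 1.04, 2.31 and 2.83 CPM with Y665F against 4.30, 4.44 and 6.82 CPM, with log2 differences of −1.03 (adjusted p = 0.295) and −1.33 (adjusted p = 0.113). With STAT5B, 0 members were called (0.00975% of genes higher, 0% lower), 1, Id2, had an unadjusted p under 0.05 and DESeq2 called 0. With Y665H, 0 were called (0.00488% higher, 0% lower), 0 had an unadjusted p under 0.05 and DESeq2 called 0. Against STAT5B in WT cells, 0 members were called with N642H (0.00488% higher, 0% lower), Y665F (0% and 0%) or Y665H (0% and 0.00488%), and 1, 2 and 0 had an unadjusted p under 0.05, Tbx21 for N642H and Tbx21 and Gata3 for Y665F; DESeq2 called 0 in each.

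Bcl6 in WT cells was at 5.96, 7.70 and 8.17 CPM with STAT5B, 6.29, 10.4 and 11.3 CPM with N642H, 6.20, 7.75 and 8.09 CPM with Y665F and 3.05, 4.76 and 7.44 CPM with Y665H, against 3.23, 3.32 and 7.39 CPM with EV. Every group overlapped EV. Its log2 difference from EV was 0.98 with N642H (SE 0.35, adjusted p = 0.251), so the estimate was above 0 where that in null cells was −2.39. With the replicate block, Bcl6 was called higher with N642H in WT cells. Of the lists in WT cells, Ccl3 rose with N642H (1.88) and Y665F (1.99), the cytokine Lta of the STAT5 response genes rose with N642H (2.03) and Y665F (1.98), and Satb1, a chromatin organiser of naive T cells, fell with both (−0.91 and −1.05). In all, of 28 other lineage factors 2 rose and 1 fell with N642H and 0 rose and 2 fell with Y665F, 1 and 2 of 10 Th1 genes rose, 1 and 1 of 7 STAT5 response genes rose, Id1 of the Id factors rose with N642H (2.86), and 0 passed among the Th2, Th17, Tfh and AHR response genes with these 2 constructs or in any list with STAT5B or Y665H.

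Whether a construct acted differently in the 2 backgrounds was tested by the interaction, the response in null minus that in WT cells, over all 30 libraries. Bcl6 differed for STAT5B (log2 −2.12, SE 0.42, adjusted p = 0.0271), N642H (−3.32, SE 0.43, adjusted p = 4.56e-05) and Y665F (−2.75, SE 0.42, adjusted p = 0.000647), and Id2 differed for Y665F in the other direction (1.38, SE 0.32, adjusted p = 0.0392). These were 1 of 9 members for STAT5B, where 0.1% of 21975 genes were higher and 0.00455% lower, 1 for N642H (0.341% and 0.0455%), and 2 for Y665F (0.437% and 0.041%). For STAT5B, Bcl6 was the only gene of the 21975 called lower. The N642H and Y665F interactions of Bcl6 held without any single library, that of STAT5B was lost without 8 of 12 libraries in turn (log2 between −1.92 and −2.10, adjusted p up to 0.149) and that of Id2 without 8 of 12 (1.24 to 1.49, adjusted p up to 0.168). For Y665H, 0 members were called (0.00455% of genes higher, 0% lower), 1, Id2, had an unadjusted p under 0.05 and DESeq2 called 0. Among the lists, the interaction of Y665F called Cxcr5 lower (−2.11) and Ccr4 higher (1.34), that of N642H called Ccr4 higher (1.55), and 3, 3 and 4 of 7 STAT5 response genes were called higher for STAT5B, N642H and Y665F, with Socs2 at 4.16, 5.19 and 4.93.

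The splenic T cells asked what the mutations do when present from the germline and the cells meet IL-2 and IL-7. In bulk samples a lower level can mean fewer cells of a type or less RNA per cell, and these cannot be told apart. The T cell libraries differed in depth and content: Y665H replicates 1 and 2 and Y665F replicate 3 held 3310342, 2017012 and 2851451 reads on genes, and Y665F replicate 3 also held 712 CPM of 8 B cell markers and 1074 CPM of erythroid markers, against at most 200 and 84.4 CPM in the other 14 libraries. The globin genes of the erythroid list were at or near 0 in all T cell and spleen libraries. The results below are therefore also given without these 3 libraries, a choice made after the libraries had been seen. Y665H replicate 4, which stayed in, held 5327354 reads on genes, exactly the total of Y665H replicates 1 and 2. It may therefore not be a separate library, and tests with Y665H T cells may count the same reads again.

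Against WT, 0 of 9 members were called in Y665F cells (1.26% of 22313 genes higher, 0.614% lower) and 0 in Y665H cells (0.0314% and 0.0448%). At an unadjusted p under 0.05 there were 4 and 2, and DESeq2 called 3 and 0, counts without a share of all genes. Y665F cells nevertheless lay above WT cells in Eomes, at 90.4, 117, 134 and 158 CPM against 50.9, 62.1, 63.9 and 77.5 CPM. The groups did not overlap, and the log2 difference was 0.98 (SE 0.27, adjusted p = 0.0568); it was 1.13 (SE 0.25, adjusted p = 0.0152) without the 3 libraries, within 0.00397 to 0.179 over the 14 alternatives tried. Gata3 was at 36.3, 42.6, 43.1 and 46.7 CPM in Y665F and 25.4, 28.3, 29.3 and 35.5 CPM in WT cells, without overlap (log2 0.51, SE 0.21, adjusted p = 0.181). Tbx21 in Y665H cells was at 2.86, 3.47, 4.38 and 6.25 CPM, below all WT libraries at 7.38 to 11.7 CPM (log2 −1.12, SE 0.31, adjusted p = 0.26). Id2 was highest in WT cells, at 124, 162, 206 and 228 CPM, against 49.6 to 153 CPM in Y665F cells (log2 −0.84, adjusted p = 0.128) and 66.8 to 159 CPM in Y665H cells (log2 −0.73, adjusted p = 0.499), with overlap in both cases.

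Set against each other, the 2 mutants differed in Tbx21, Eomes and Gata3, which were all higher in Y665F cells, 3 of 9 members, where 4.01% of genes were higher and 2.18% lower. Tbx21 was at 9.14, 15.6, 16.5 and 22.4 CPM in Y665F cells, 3.66-fold above Y665H cells (log2 1.87, SE 0.32, adjusted p = 0.000823), and the groups did not overlap. The call held without any single library and without the 3 libraries (log2 1.90, SE 0.38). These fits cannot show whether it depends on Y665H replicates 1, 2 or 4, whose reads may stay in through each other. Eomes differed by log2 0.93 (SE 0.27, adjusted p = 0.0398) and Gata3 by 0.75 (SE 0.22, adjusted p = 0.0403), with no overlap, and both calls were lost without the 3 libraries (log2 1.04 and 0.73; adjusted p = 0.0846 and 0.245, the ranges over 14 alternatives being 0.00881 to 0.134 and 0.00296 to 0.245). Eomes was also lost without Y665H replicate 1 or 4 or Y665F replicate 1, 2 or 4, and Gata3 without Y665H replicate 1 or 4 or Y665F replicate 2, 3 or 4. Without Y665H replicate 4, whose reads may be those of replicates 1 and 2, Tbx21 was thus the only one of these 3 still called. Ahr, at 10.05 to 17.1 CPM in Y665F and 3.14 to 10.1 CPM in Y665H cells, gave log2 1.02 (adjusted p = 0.0546), and Prdm1 lay between 11.6 and 22.5 CPM in all 15 libraries.

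Y665F cells with IL-2 and IL-7 were compared with Y665F cells without interleukin, whose time in culture is not given in the labels. In this comparison the interleukins and the 24 h in culture therefore cannot be told apart. Tbx21 was higher with interleukin, at 9.14 to 22.4 CPM against 6.51, 7.56 and 7.72 CPM (log2 1.15, SE 0.32, adjusted p = 0.0461), 1 of 9 members with 2.94% of genes higher and 0.91% lower. RLE factors called 0 members here, filterByExpr 2 and DESeq2 3. The Tbx21 call was lost without 6 of the 7 libraries in turn, all but Y665F replicate 3 (log2 from 0.94 to 1.19 without the others). Bcl6 was at 16.1, 19.3 and 22.4 CPM without interleukin and at 2.69, 4.31, 7.50 and 18.6 CPM with it. The highest of these, Y665F replicate 3, is the library with the most B cell markers, and B cells transcribe Bcl6. The log2 difference was −1.33 (SE 0.42, adjusted p = 0.084) with all libraries and −1.98 (SE 0.35, adjusted p = 0.000339) without the 3 libraries, within 0.000339 to 0.238 over 13 alternatives, and the part of the B cells in it was not tested. Without the 3 libraries 3 members were called, Tbx21 and Id2 (1.13, SE 0.28) higher with interleukin and Bcl6 lower. The share of all genes called was not computed for this fit, nor for the RLE, filterByExpr and DESeq2 fits. These counts therefore cannot be told from a change in calls over all genes.

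**Figure D3:**
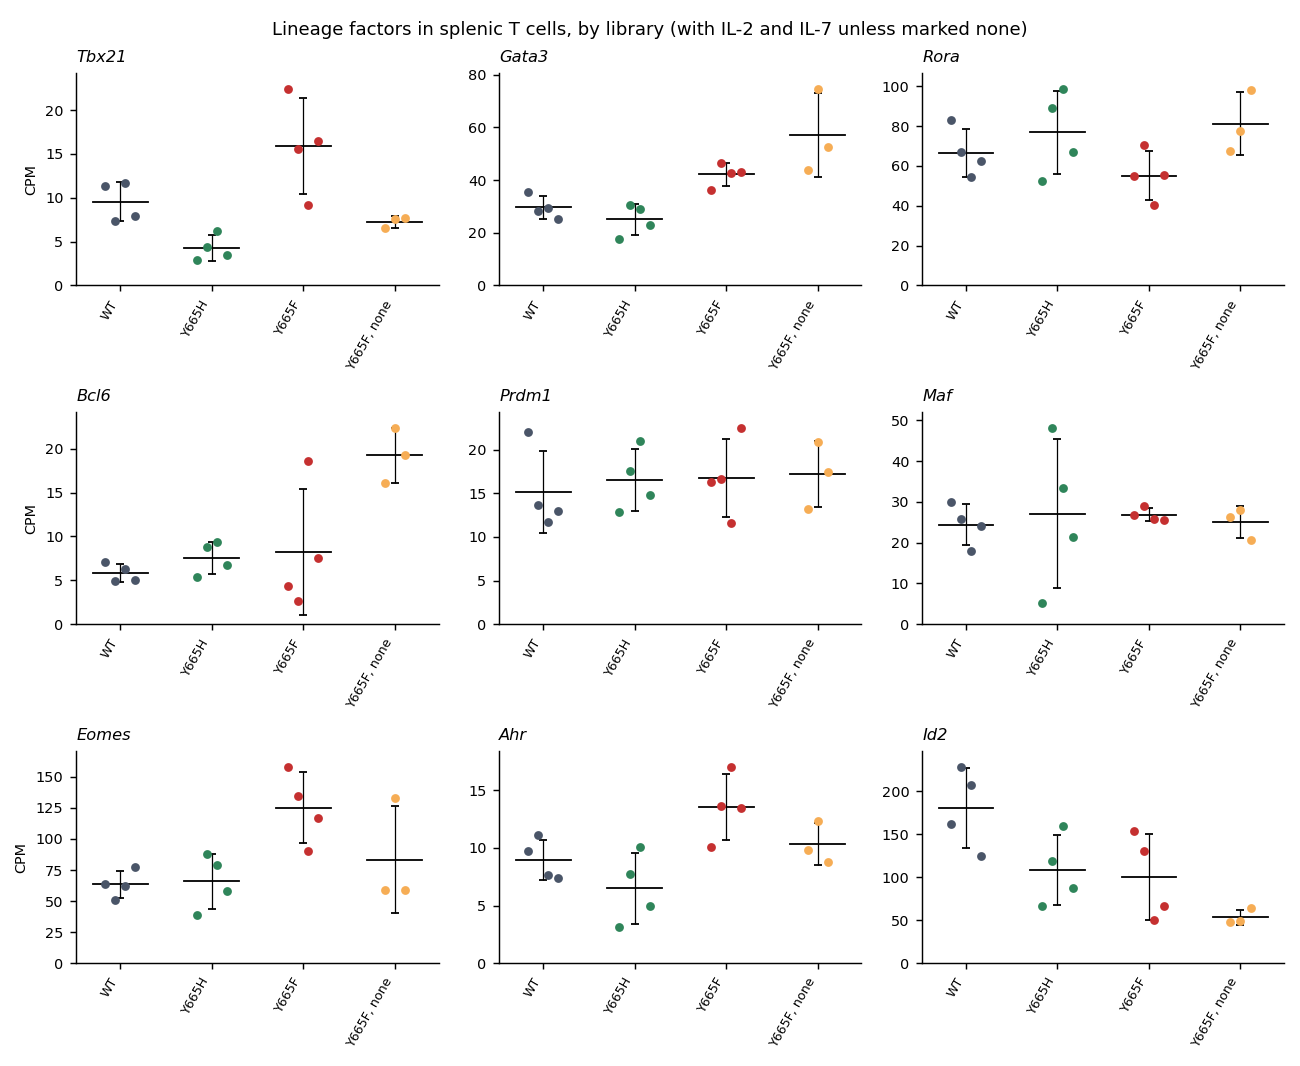
Level of each factor (CPM) in every splenic T cell library by group, with the mean (line) and SD (bar) of 4 libraries, or 3 for Y665F without interleukin. Y665H replicate 4 may hold the reads of Y665H replicates 1 and 2. Tbx21 lay at 9.14 to 22.4 CPM in Y665F cells with IL-2 and IL-7 and at 2.86 to 6.25 CPM in Y665H cells, and 1 Y665F library stood at 18.6 CPM of Bcl6 while the other 3 were at 2.69 to 7.50 CPM.

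The makeup of these cells moved with the groups. The 7 effector and memory CD8 markers summed to 546 to 1206 CPM in Y665F, 256 to 510 CPM in WT and 129 to 180 CPM in Y665H cells, the NK cell markers to 68.2 to 92.6, 30.5 to 137 and 14.3 to 32.2 CPM, and the 2 CD4 T cell markers, Cd4 and Cd40lg, to 87.4 to 236, 342 to 393 and 217 to 399 CPM. The NK cell sums rest on Ncr1, Klrb1c and Klre1, with Klra4 and Klra8 at or near 0. The 5 regulatory T cell markers summed to 361 to 674 CPM in Y665F, 370 to 498 CPM in WT and 136 to 312 CPM in Y665H cells. The part of these cells in the levels of Tbx21, Eomes and Gata3 was not tested. Between the mutants, 7 of 10 Th1 genes were higher in Y665F cells and 0 lower (Ifng 3.31, Il12rb2 2.28), 6 of 27 other lineage factors higher and 3 lower (Irf8 3.12, Nfil3 2.28), 3 of 8 Th2 genes higher (Il1rl1 2.68, Il13 5.71), 5 of 7 STAT5 response genes higher (Il2ra 2.03, Osm 2.08), 2 of 9 Tfh genes lower (Il6ra −1.14, Slamf6 −0.86) and Nqo1 of the AHR response genes lower (−1.60), on the log2 scale. Of the Th17 genes and the E proteins and Id factors, 0 passed. Against WT, Y665F cells had 2 Th1 genes higher (Il12rb2 1.86, Ifng 2.26), 3 lineage factors higher and 1 lower (Nfil3 1.26, Klf2 −0.81), 1 Th2 gene higher (Il1rl1 1.66), 1 Tfh gene lower (Slamf6 −0.91) and 0 of 7 STAT5 response genes called, and Y665H cells had 0 called in all 8 lists. With against without interleukin, 7 of 7 STAT5 response genes (Lta 3.32, Osm 3.67) and 5 of 10 Th1 genes (Il12rb2 2.50, Ifng 2.15) were higher, 6 of 27 lineage factors were higher and 2 lower (Irf8 2.51), and 1 Tfh gene was lower (Il6ra −1.03).

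The spleen libraries were made without interleukin, and here the same factors are read from the mixed cells of the organ. Gata3 and Tbx21 were higher in Y665F than in WT spleens, 2 of 9 members, where 5.63% of 19418 genes were higher and 6.59% lower. Eomes, Gata3, Id2 and Rora were lower in Y665H than in WT spleens, 4 of 9 members, where 10.7% of genes were higher and 9.05% lower. Gata3, Eomes and Tbx21 were higher in Y665F than in Y665H spleens, 3 of 9, where 10.5% were higher and 15.3% lower.

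Gata3 was the only member called in all 3 comparisons of the genotypes. It was at 7.93, 9.18, 9.25 and 10.7 CPM in WT spleens, at 5.31, 5.63, 5.69, 6.18 and 8.76 CPM in Y665H spleens and at 15.7 to 19.1 CPM (median 17.4) in the 7 Y665F spleens. All Y665F libraries lay above all others, and 1 Y665H library lay within the WT range. The log2 difference was 0.92 for Y665F against WT (SE 0.12, adjusted p = 0.000246), −0.55 for Y665H against WT (SE 0.13, adjusted p = 0.00651) and 1.47 between the mutants (SE 0.12, adjusted p = 2.08e-07).

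Tbx21 was at 11.6 to 19.96 CPM (median 15.1) in Y665F spleens, above the 8.03 to 11.2 CPM of WT and 7.96 to 9.74 CPM of Y665H spleens. It differed by log2 0.64 from WT (SE 0.12, adjusted p = 0.00343) and by 0.83 from Y665H (SE 0.12, adjusted p = 9.42e-05), and Y665H and WT overlapped. Eomes was at 10.6, 11.4, 12.6, 13.2 and 15.4 CPM in Y665H spleens, below all WT spleens at 20.9 to 24.2 CPM and all Y665F spleens at 19.0 to 32.4 CPM (median 23.8). Its log2 difference was −0.79 for Y665H against WT (SE 0.14, adjusted p = 0.00183) and 1.01 for Y665F against Y665H (SE 0.12, adjusted p = 2.93e-05), while Y665F and WT overlapped (0.21, adjusted p = 0.295).

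Id2 was at 48.7, 55.4, 66.8, 67.3 and 71.1 CPM in Y665H spleens against 80.5 to 81.4 CPM in WT spleens (log2 −0.39, SE 0.09, adjusted p = 0.00721). Rora was at 29.8 to 44.0 CPM against 45.8 to 52.6 CPM (log2 −0.36, SE 0.09, adjusted p = 0.0119). Neither gene overlapped between the 2 groups, and the Rora call was lost without WT replicate 1 (log2 −0.30) or 2 (−0.31). In Y665F spleens Rora was at 37.2 to 42.2 CPM, also below every WT library, with a log2 difference of −0.27 (adjusted p = 0.0529), and Id2 at 61.8 to 73.2 CPM, with −0.24 (adjusted p = 0.0839). Bcl6, Prdm1, Maf and Ahr passed in none of the 3 comparisons. Their levels over all 16 spleens were 47.7 to 65.8 CPM for Bcl6, 20.1 to 27.0 CPM for Prdm1, 63.8 to 110.0 CPM for Maf and 43.2 to 59.0 CPM for Ahr. Per kilobase of exon, WT spleens held most of Id2 (33.29 CPM), then Maf (11.09), Ahr (9.11) and Bcl6 (8.85), and least of Gata3 (2.33 CPM per kilobase).

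**Figure D4:**
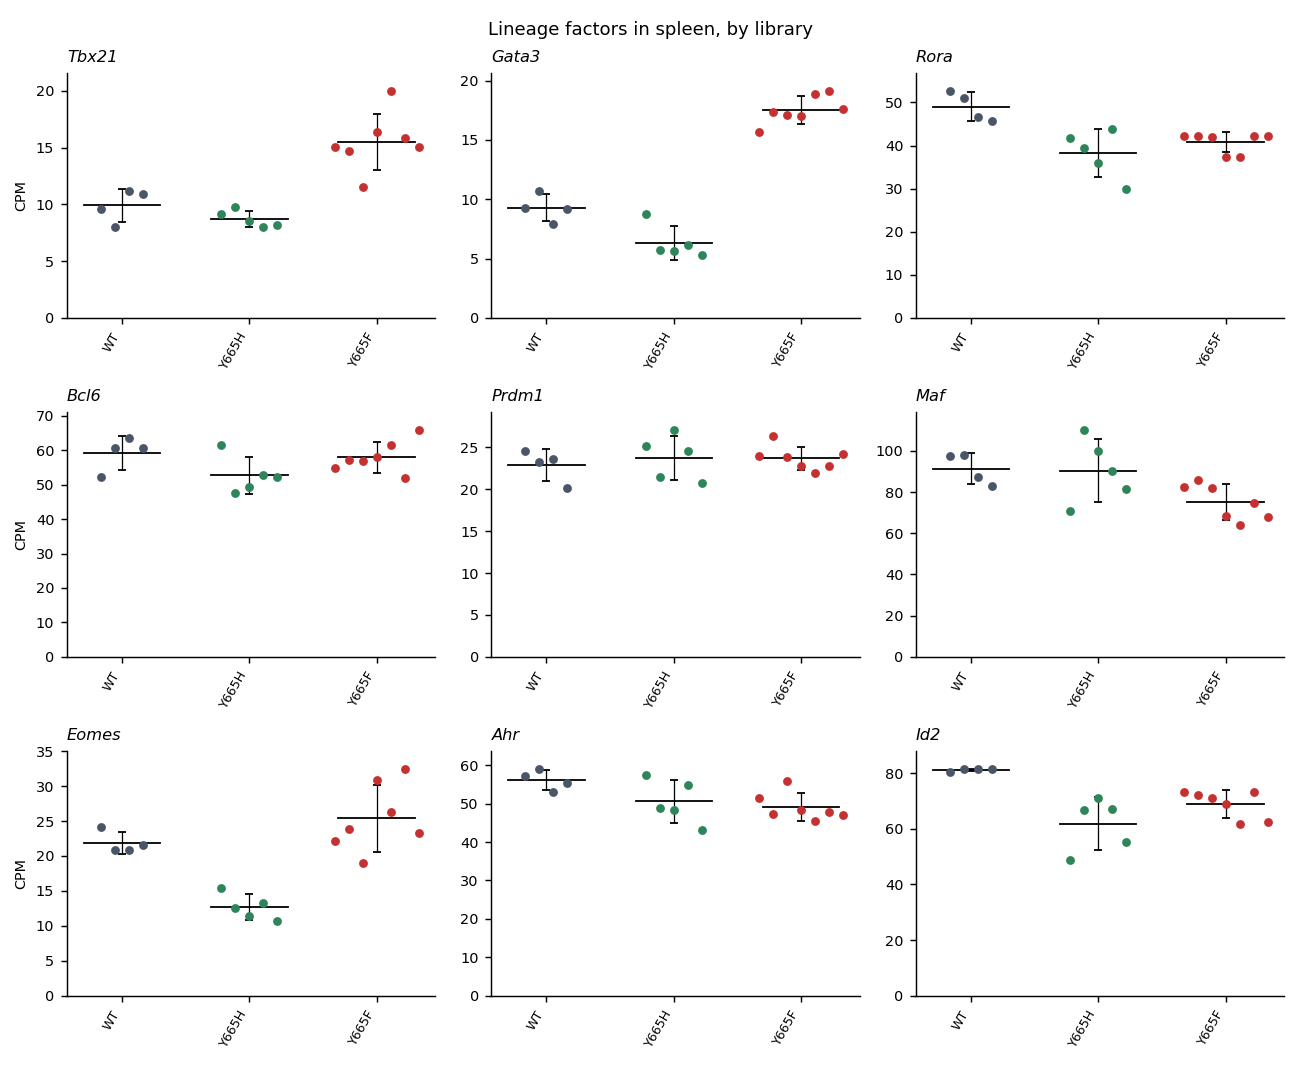
Level of each factor (CPM) in every spleen by genotype, with the mean (line) and SD (bar) of 4 WT, 5 Y665H and 7 Y665F spleens. Gata3 lay at 15.7 to 19.1 CPM in Y665F spleens, above all other spleens, and Eomes at 10.6 to 15.4 CPM in Y665H spleens, below all others.

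The cells of the spleen moved with the genotype as well. The 12 T cell markers summed to 752 to 902 CPM in WT, 1000.2 to 1382 CPM in Y665F and 523 to 774 CPM in Y665H spleens, the 7 effector and memory CD8 markers to 122 to 143, 122 to 223 and 51.8 to 75.1 CPM, the NK cell markers to 49.9 to 68.5, 16.4 to 56.3 and 18.9 to 32.0 CPM, and the 5 regulatory T cell markers to 138 to 158, 190 to 248 and 87.8 to 138 CPM. Erythroid markers reached 5092 CPM and neutrophil markers 1536 CPM in Y665H spleens, and Y665H replicate 1 stood apart from the other 4 with 761 CPM of erythroid markers and the highest T cell sum, 774 CPM. Without it, Y665H differed from WT in the same 4 members, with Gata3 at −0.67, Eomes at −0.84, Id2 at −0.28 and Rora at −0.36, and Maf was called lower in Y665F than in Y665H spleens (−0.37, adjusted p = 0.00477, where the range over 18 alternatives was 1.92e-06 to 0.203).

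To set the factors against the T cells of each spleen, the fits were repeated with libraries scaled to the 12 T cell markers. This moved the median log2 difference of all genes by −0.53 for Y665F against WT, by 0.50 for Y665H against WT and by −1.04 for Y665F against Y665H, and values are read against these shifts. Scaled this way, Gata3 was still higher in Y665F than in WT spleens (log2 0.39, SE 0.11) and than in Y665H spleens (0.47, SE 0.11), Tbx21 stood at 0.09 and −0.22 and Eomes at −0.34 and −0.03, which for Tbx21 and Eomes between the mutants is the shift of all genes. Against WT, 8 members were called in Y665F spleens, Gata3 higher and 7 lower, where 0.479% of genes were higher and 55.6% lower, and between the mutants 7 were called, 1 higher and 6 lower, where 0.391% were higher and 83.8% lower. For Y665H against WT, 4 were called higher, Bcl6, Prdm1, Maf and Ahr, where 54.8% of genes were higher and 0.376% lower, Gata3 stood at −0.08 and Eomes at −0.31, and Id2 and Rora at 0.13 each, again by the size of the shift. Gata3 was thus the single member called higher in Y665F spleens on this scale, among 93 genes against WT and 76 against Y665H. The regulatory T cell markers, which this scaling does not hold fixed, were also highest in Y665F spleens, and their part in the Gata3 level was not tested.

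**Figure D5:**
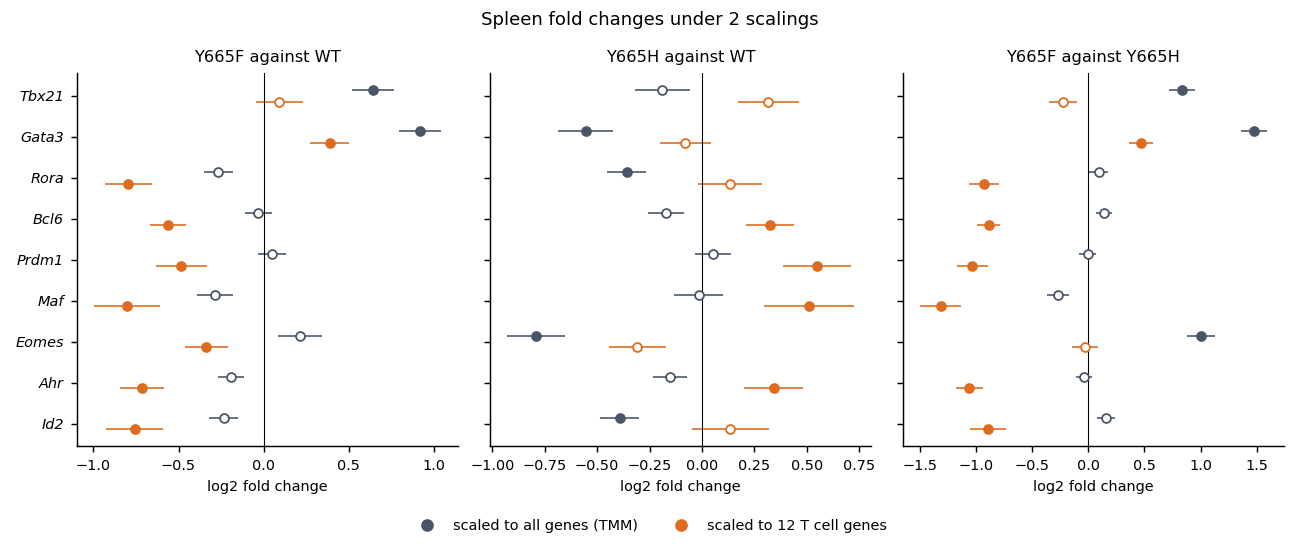
Log2 fold change of each factor between spleen genotypes (points, bars ± SE) with libraries scaled to all genes (grey) and to 12 T cell markers (orange), filled where the adjusted p was under 0.05. For Y665F against WT, Gata3 lay at 0.92 and 0.39 under the 2 scalings and Tbx21 at 0.64 and 0.09.

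Of the lists in spleen, 3 of 10 Th1 genes were higher in Y665F than in WT spleens (Il18r1 0.58, Cxcr3 0.60), 7 of 28 other lineage factors higher and 1 lower, with the regulatory T cell factors Foxp3 (1.12) and Ikzf2 (0.43), 2 of 8 Th2 genes higher (Ccr4 0.94, Ccr8 1.34), 6 of 7 STAT5 response genes higher (Cish 1.81, Socs2 0.76), 2 of 9 Tfh genes higher and 3 lower (Il6ra 0.48, Cxcr5 −0.37), 2 of 5 E proteins and Id factors lower (Id1 −0.67, Tcf4 −0.28), 2 of 5 AHR response genes lower (Tiparp −0.33, Cyp1b1 −0.37) and 1 of 4 Th17 genes lower (Ccr6 −0.39). In Y665H spleens, 6 of 10 Th1 genes were lower (Il18r1 −0.85, Il12rb2 −0.66), 1 of 28 lineage factors higher and 7 lower (Stat4 −0.58, Ikzf2 −0.44), 3 of 9 Tfh genes lower (Btla −0.66, Cd200 −0.43), and 1 of 7 STAT5 response genes higher and 3 lower (Pim1 0.68, Socs2 −0.56). There, 1 of 8 Th2 genes was higher and 1 lower (Il1rl1 1.51, Il17rb −0.51), 1 of 5 E proteins and Id factors higher and 2 lower (Tcf3 0.55, Id1 −0.45), 1 of 5 AHR response genes higher and 2 lower (Tiparp −0.29, Nqo1 1.30), and 0 of 4 Th17 genes passed. Between the mutants, 8 of 10 Th1 genes (Il18r1 1.44, Il18rap 0.98) and 16 of 28 lineage factors (Ikzf2 0.88, Bcl11b 1.18) were higher in Y665F spleens and 0 lower, 5 of 7 STAT5 response genes were higher (Socs2 1.32, Cish 1.49), 4 of 9 Tfh genes higher and 1 lower (Il6ra 0.62, Icos 0.59), 3 of 8 Th2 genes higher and 1 lower (Ccr4 0.95, Ccr8 1.31), and Nqo1 (−1.53), Tcf4 (−0.20) and Il1r1 (−0.22) were the members of the remaining 3 lists called lower. Scaled to the T cell markers, where most genes of the files moved with the shift, the counts between the mutants became 1 higher and 4 lower of the Th1 genes, 0 and 21 of the lineage factors, 0 and 9 of the Tfh genes, 3 and 3 of the STAT5 response genes, 0 and 2 of the Th2 genes, 0 and 3 of the Th17 genes and 0 and 5 each of the AHR response genes and of the E proteins and Id factors. For Y665F against WT they became 1 and 13 of the lineage factors, 0 and 2 of the Th1 genes, 2 and 1 of the Th2 genes, 0 and 2 of the Th17 genes, 0 and 6 of the Tfh genes, 0 and 3 each of the AHR response genes and of the E proteins and Id factors, and 1 and 1 of the STAT5 response genes. For Y665H against WT they became 16 and 0 of the lineage factors, 1 and 1 of the Th1 genes, 2 and 0 of the Th2 genes, 1 and 0 of the Th17 genes, 3 and 0 of the Tfh genes, 1 and 0 of the AHR response genes, 2 and 0 of the E proteins and Id factors and 3 and 0 of the STAT5 response genes.

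The genes whose levels went most closely with a member were ranked by Pearson's r of log2 CPM, among genes averaging 5 CPM or more, over the 30 CD4+ libraries, which share 2 backgrounds, and over the 16 spleens, which share their cell makeup; these are descriptions. In CD4+ cells, Bcl6 went with the chemokine receptor Cxcr4 (0.85) and Usp11 (0.84), Tbx21 with Serpina3f (0.94), Iigp1 (0.93) and Ly6a (0.91), Maf with Ankrd12 (0.93) and Ctsw (0.92), Rora with Mnda (0.95), Ahr with Mgat5 (0.94), Prdm1 with the IL-12 receptor chain Il12rb2 (0.88) and Gata3 with Inf2 (0.83), while the highest r of Eomes was 0.76 (Fggy) and that of Id2 0.70 (Trib2). In spleens, Gata3 went with the T cell receptor subunit Cd3e (0.99), Ccnd2 (0.98) and Bcl2 (0.98), Tbx21 with Spn (0.99), Sema4a (0.96) and the IL-2 receptor chain Il2rb (0.96), Eomes with Epsti1 (0.98) and Crtam (0.97), Maf with Clasp2 (0.94), Id2 with Tlr13 (0.94), Rora with Chic1 and Bcl6 with Mapk11 (0.92 each), Ahr with Ttc8 (0.85) and Prdm1 with Tmem150b (0.73). None of these genes was itself a member.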

How the data were processed

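The authors trimmed the reads with Trimmomatic 0.36, aligned them to mm10 with STAR and counted them per gene with HTSeq 0.9.1, per the submitters' processing notes, from a stranded total RNA kit; the strand setting and gene annotation of the counting are not given in the sources used here. The deposited files hold raw counts of 24421 gene symbols and 5 closing lines of reads without a gene, which held 28.4% to 36.9% of all entries in CD4+ libraries and 62.8% to 85.7% in splenic T cell and spleen libraries and were left out. Counts were tested in R 4.3.3 with edgeR 4.0.16 (TMM factors, genes with at least 10 reads over the fit, glmQLFit and glmQLFTest, Benjamini-Hochberg adjustment over the genes of the fit, called at an adjusted p under 0.05), in 5 fits: null CD4+, WT CD4+, both, splenic T cells and spleens, with the vector or genotype as the group, 26 comparisons in all. SE is the size of the log2 change divided by the square root of F. CPM of the CD4+ cells come from the fit of both backgrounds.

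The members and gene lists were chosen with earlier results of these data known. The text names all 9 members, at most 2 genes with the smallest adjusted p per list, and up to 3 of the genes most like a member, with r computed at a prior count of 2; a few genes that this rule names are not reported here. Of the marker lists, the mammary list, tested because a label names that tissue, summed to at most 10.4 CPM in any library.

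Same-numbered libraries were checked by the correlation of their deviations from the group means. In null cells 30 of 30 pairs exceeded 0.1 (median 0.464), so the replicate block is given beside those results. In WT cells 29 of 30 did (median 0.650), and the counts of members called with the block are given there. In splenic T cells 5 of 21 did, and in spleens 4 of 13. Alternatives were RLE factors, DESeq2 1.42.0, filterByExpr, no filter, the replicate block, a 2-fold minimum, leaving out each library, the scaling of spleens to 12 T cell genes and, added after seeing the data, 12 of the 15 splenic T cell libraries. Each fit was tested on simulated data with known changes. Exons were taken from GENCODE M21 (GRCm38); 9230102O04Rik touches exons of Gata3, and reads of the pair may not be separated.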

Additional observations from a re-analysis of the deposited data

Results flagged for a closer look

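The response of Bcl6 differed between the Stat5a/b-null and WT backgrounds for STAT5B (log2 −2.12), N642H (−3.32) and Y665F (−2.75), and that of Id2 differed for Y665F (1.38), each by the test of the interaction itself. In the null cells Bcl6 was lower with these 3 constructs than with EV, and in the WT cells its estimates were 0.63, 0.98 and 0.63, none of which passed without the replicate block. With the block, Bcl6 was called higher with N642H in WT cells.

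Of 54 pairs of a member and a group of 4 to 7 libraries, 2 held a library far from the others, where chance flags about 1 in 20. Gata3 was at 8.76 CPM in Y665H spleen replicate 1 against 5.31 to 6.18 CPM in the other 4, the same library that held the highest T cell marker sum and the lowest erythroid sum of its group; the part of either in the Gata3 level was not tested. Id2 was at 80.5 CPM in WT spleen replicate 1 against 81.3 to 81.4 CPM in the other 3, a gap of under 1 CPM.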

How the results depend on the processing

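The share of all genes called was computed only for the main fits, the block in null cells and the T cell scaling of spleens. Counts under the other settings, and counts at an unadjusted p under 0.05, therefore cannot be told from a change in calls over all genes. Counts of members called that moved by over 1.5 times were these. With the replicate block, null cells gave 5 for STAT5B, 5 for N642H, 4 for Y665F, 1 for Y665H, 1 for N642H against STAT5B and 3 for Y665H against STAT5B. The replicate block also gave 1 for STAT5B, 5 for N642H, 5 for Y665F and 1 for N642H against STAT5B in WT cells, 2 and 3 for the STAT5B and N642H interactions, 1 for Y665F against Y665H splenic T cells, 0 with against without interleukin and 1 for Y665F against WT spleens. In WT cells the members called were Tbx21, Bcl6 and Prdm1 higher and Ahr and Id2 lower for N642H, and Tbx21 and Prdm1 higher and Gata3, Ahr and Id2 lower for Y665F. Same-numbered WT CD4+ libraries went together in 29 of 30 pairs (median correlation 0.650). The numbers are not shown to pair the splenic T cell or spleen libraries, and pairing of null with WT libraries was not tested. A 2-fold minimum gave 1 for Y665F in null and 0 in WT cells, 1 between the mutant T cells, and 0 for either mutant against WT in spleen. DESeq2 gave 2 for STAT5B, 1 for N642H against STAT5B and 1 for Y665H against STAT5B in null cells, 2 for N642H and 4 for Y665F in WT cells, 2 for the N642H interaction and 3 each for Y665F against WT T cells and with against without interleukin. RLE factors and filterByExpr each gave 1 for the Y665F interaction and 1 for Y665F against WT T cells, with 0 and 2 with against without interleukin, and no filter 1 for Y665F against WT T cells and 1 for Y665H against STAT5B in null cells. Without the 3 shallow T cell libraries the counts were 1 for Y665F against WT, 1 between the mutants and 3 with against without interleukin. Scaling to T cell markers gave 8 for Y665F against WT and 7 between the mutants in spleen, and put Id2 (0.13) and Rora (0.13) for Y665H against WT and Eomes (−0.028) and Tbx21 (−0.22) between the mutants on the other side of 0, by about the shift of the median of all genes (0.50 and −1.04), so these signs say nothing about the members. Leaving out 1 library gave 1 to 3 for Y665F and 0 to 1 for Y665H against STAT5B in null cells, 0 to 1 for N642H and 0 to 3 for Y665F in WT cells, 0 to 1 and 1 to 3 for the STAT5B and Y665F interactions, and 0 to 1 for Y665F against WT, 1 to 4 between the mutants and 0 to 3 with against without interleukin in T cells. The cause was not tested. Depth limits the splenic T cells most, with 2017012 reads in the shallowest library. Y665H T cell replicate 4 may hold the reads of replicates 1 and 2, so fits without any of these libraries may still hold its reads.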
